A study of Mus musculus with 6 samples.

Results

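The genes described here are 48 genes of mitosis and of the G2/M transition, read from the RNA-seq of mouse 3T3 cells with or without induced human poly(ADP-ribose) glycohydrolase (hPARG). They were chosen by name, from a list of cyclins, kinases, kinetochore proteins, spindle motors, cytokinesis proteins and proliferation markers, and not by a rule on measured values. Earlier results of these data were known when the choice was made. All 48 were present among the 41819 genes of the deposited table, and all 48 were among the 11509 genes with enough counts to be tested.

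Cells pass from G2 into mitosis when cyclin B and its kinase Cdk1 become active. Aurora and Polo-like kinases then build the spindle, kinetochores tie chromosomes to its microtubules, and the spindle assembly checkpoint holds back the anaphase-promoting complex (APC/C) until every chromosome is attached. APC/C with Cdc20 then releases separase and destroys the cyclins, and a contractile ring divides the cell. Most of the RNAs that encode these proteins are made periodically, late in the cell cycle, through the MuvB complex with B-Myb and Foxm1, and they are kept low in resting cells by the DREAM complex. For this reason their RNA levels in a dish are widely used as a measure of how many cells are dividing. 3T3 cells are an immortalized line of mouse embryo fibroblasts that divides continuously in culture.

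One lentiviral clone of 3T3 cells was used for all 6 samples. It carries human PARG together with the fluorescent protein mClover3 under the TetOne promoter, which is switched on by doxycycline (DOX), and a puromycin resistance gene. PARG removes poly(ADP-ribose) from proteins. The control group (3 dishes) received no DOX and the hPARG group (3 dishes) received 500 ng/ml DOX for 72 h, while the medium of both groups contained puromycin. The labels place the samples in wells of a 6-well plate, whereas by the methods they were 10 cm dishes, and they are called dishes in what follows. No dish without the cassette was given DOX in this series, so DOX itself and hPARG cannot be told apart. The labels also carry the word malignant for the cell line. Because all dishes come from 1 clone, p-values measure the spread between dishes of that clone.

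Totals of 21619908 to 25263818 counts per dish were assigned to genes, and CPM stands for counts scaled to the library size after TMM normalization. A count of 3 in a dish corresponds to 0.119 to 0.139 CPM, taken as the floor of detection. The libraries had no molecular identifiers, so this floor allows for counting error alone. Both dishes numbered 2, 1 of each group, stood apart from the other 4. The counts of members that passed and the range of their log2 fold changes are also given without these dishes. Counts by role and for related lists use all 6 dishes unless stated. Of 12 fibroblast markers, 8 were above 1 RPKM (counts scaled to gene length and library size, as the authors deposited them) in every dish, while Pdgfrb, Dcn, Lum and Fap were below 1 RPKM in every dish. Fap was at or near 0. The summed RPKM of that list was 3188 to 3565 without DOX and 3391 to 3815 with hPARG. Of 6 leukocyte, 5 epithelial and 4 endothelial markers, 1 (Cd14) reached 1 RPKM in every dish, and the leukocyte markers summed to 5.62 to 6.27 RPKM without DOX and 3.88 to 5.80 with hPARG. The human cassette has no row in the table, so its induction could not be checked from the counts, and the mouse Parg gene differed by a log2 fold change of 0.04 (SE 0.112, edgeR FDR 0.999).

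The promoters of mitotic genes are known for a pair of short elements. The CCAAT box is bound by NF-Y, and the cell cycle genes homology region (CHR) is bound by the DREAM and MuvB complexes. The CHR was searched as TTTGAA or TTCGAA and the CCAAT box as CCAAT, each on both strands, in RefSeq windows of 300 bases (250 before and 50 after the annotated start, GRCm38.p6). Such a window was found for 39 of the 48 genes. The stretches below show the elements found up to 100 bases before the start of genes picked for description. These are the engine of mitotic entry, the activator of APC/C, a spindle motor, the member with the smallest p and both proliferation markers. Each is given 5′ to 3′ on the strand of the gene and ends at the RefSeq start or before the first base of a GENCODE exon. Capitals mark the letters of a CHR (TTTGAA, or TTCAAA on the other strand) or of a CCAAT box (CCAAT, or ATTGG on the other strand).
Cdk1, chr10:69352939-69353012, minus strand: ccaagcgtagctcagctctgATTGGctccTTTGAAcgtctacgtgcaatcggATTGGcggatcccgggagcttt
Cks2, chr13:51645132-51645231, plus strand: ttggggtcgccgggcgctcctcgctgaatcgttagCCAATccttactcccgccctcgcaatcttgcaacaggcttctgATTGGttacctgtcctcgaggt
Cdc20, chr4:118437353-118437443, minus strand: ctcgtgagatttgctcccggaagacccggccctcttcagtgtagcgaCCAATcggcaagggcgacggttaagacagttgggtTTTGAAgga
Kif11, chr19:37376282-37376381, plus strand: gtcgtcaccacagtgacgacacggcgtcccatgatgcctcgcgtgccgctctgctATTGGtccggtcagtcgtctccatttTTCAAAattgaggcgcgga
Hmmr, chr11:40733438-40733537, minus strand: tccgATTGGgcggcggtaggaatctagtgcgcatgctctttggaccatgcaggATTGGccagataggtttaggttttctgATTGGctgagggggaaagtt
Top2a, chr11:99024190-99024289, minus strand: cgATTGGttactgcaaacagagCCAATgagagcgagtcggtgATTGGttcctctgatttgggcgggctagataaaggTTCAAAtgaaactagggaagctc
Mki67, chr7:135716380-135716479, minus strand: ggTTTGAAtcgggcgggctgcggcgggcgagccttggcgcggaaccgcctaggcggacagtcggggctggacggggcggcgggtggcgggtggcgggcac

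CHR letters were found in the windows of 30 of the 39 mitotic genes (76.9%), against 21.7% of all 27025 genes with a window and 16.2% of the tested genes that are not members. A CHR lying wholly within 50 bases of the start was found in 28 of the 39 (71.8%), against 6.12% of all genes. CCAAT letters were found in 30 of the 39 (76.9%), against 41.1% of all genes, and 26 (66.7%) held both, against 8.61%. In the Cks2 window no CHR was found and 2 CCAAT boxes lay before the start, whereas the CHR of Hmmr lay 9 bases after the start and is therefore not in its printed stretch. The CCAAT boxes of Mki67 and another CHR (first base at -116) lay further from the start than its printed stretch reaches. Other matches of Top2a, Hmmr and Cdk1 also lay too far upstream to be printed. The printed stretches of Cdk1 and Cdc20 end 26 and 9 bases before the RefSeq start. Another CHR of Cdk1 (first base at -15 from the start) and another CCAAT box of Cdc20 (at -8) are therefore not printed. Both elements were missing from 5 of the windows (Birc5, Mad2l1, Nuf2, Nusap1 and Pttg1). Among related genes the share with a CHR was 56.2% of 16 condensin and cohesin genes, 53.8% of 52 other mitotic genes, 38.9% of 18 DREAM, MuvB, E2F, RB and NF-Y factors, 31.8% of 22 genes of DNA replication and S phase and 25% of 16 APC/C subunits and cofactors. For CCAAT letters the share was 68.2% of the genes of DNA replication and S phase and 67.3% of the other mitotic genes. It was 55.6% of the DREAM, MuvB, E2F, RB and NF-Y factors and 37.5% of the APC/C subunits and cofactors. Of the 16 condensin and cohesin genes, 8 held CCAAT letters. One CHR match shared bases with a CCAAT match. These are matches of letters and not measured binding sites.

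**Figure D1:**
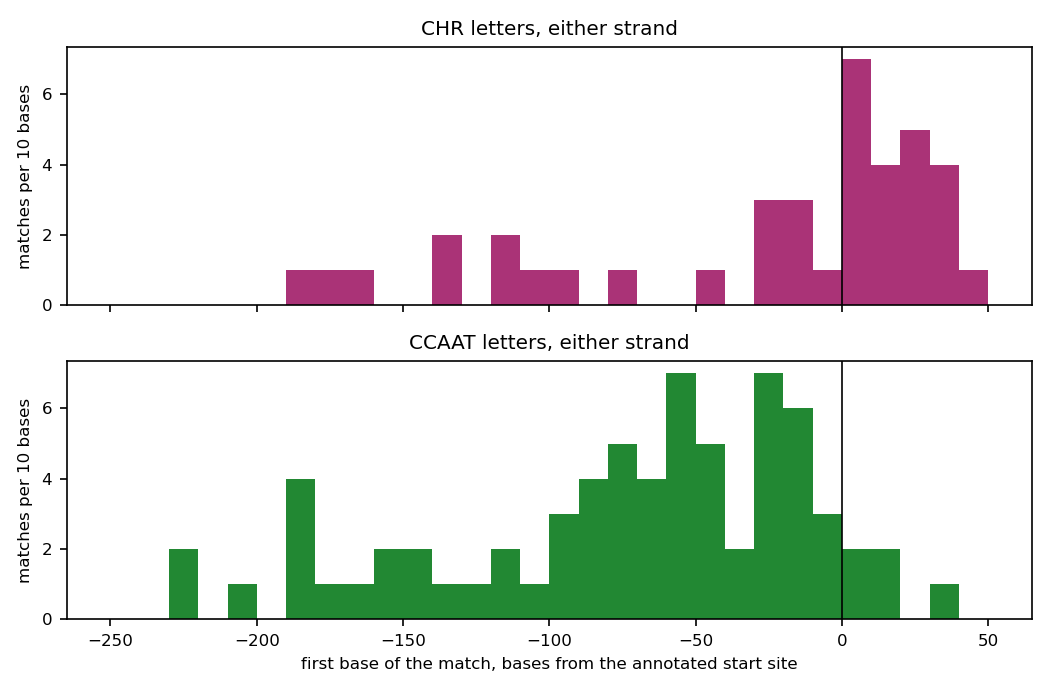
Position of the 39 CHR matches (upper panel) and 69 CCAAT matches (lower panel) in the RefSeq windows of 39 mitotic genes, as matches per 10 bases against the distance in bases from the annotated start (vertical line). Of the 39 CHR matches, 29 lie within 50 bases of the start, while CCAAT matches are spread more widely before it.

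As a set, the mitotic genes were abundant in both groups. Values for single dishes are given in the order of dishes 1, 2 and 3 throughout. The counts of the 48 genes made up 0.720, 0.719 and 0.670% of all counts without DOX and 0.689, 0.748 and 0.665% with hPARG, with means of 0.703% ± 0.0287 and 0.701% ± 0.0424 (SD, n = 3). The groups overlapped. By gene, levels per length ran from 6.81 RPKM (Cenpf, a kinetochore protein) to 114 RPKM (Cks2, a subunit of the Cdk1 complex) as means over 6 dishes. The lowest count of any member in any dish was 630 (Spc24) and the highest 15144 (Top2a), so none was near the floor. By mean CPM, 29 of the 48 lay in the top 20% of the tested genes and the lowest lay at percentile 50.7.

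**Figure D2:**
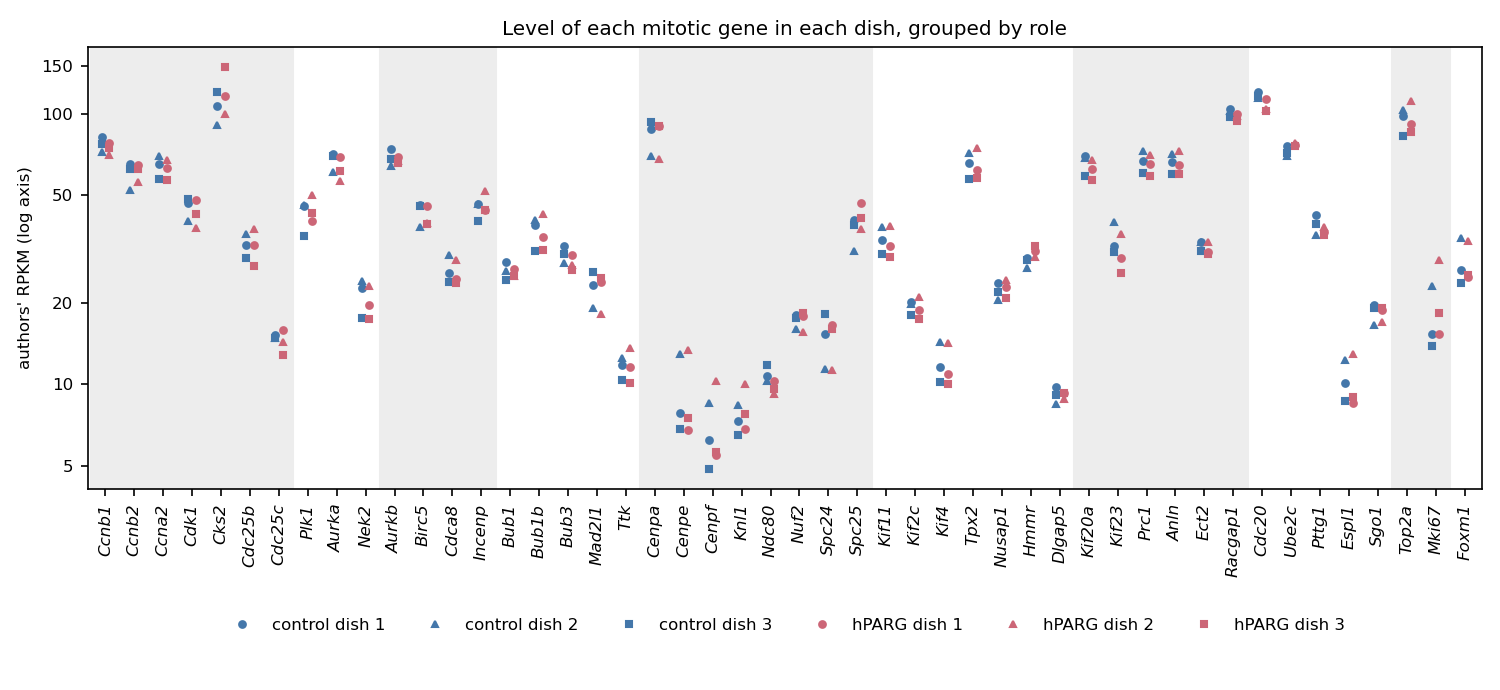
RPKM of each of the 48 mitotic genes (log axis) in each of the 6 dishes, with genes grouped by role in grey and white bands, control dishes in blue and hPARG dishes in red, and dishes 1, 2 and 3 as circles, triangles and squares. The levels span 6.81 to 114 RPKM between genes as means over 6 dishes, and the triangles of dishes 2 stand off from the other dishes in genes such as Mki67, Cenpe and Cenpf.

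The question of this comparison was whether RNA of mitotic genes differed after 72 h of hPARG induction. No member passed the test for a difference between hPARG and control cells. With edgeR's quasi-likelihood test, 0 of 48 passed an FDR under 0.05, alone or with a difference over 2-fold, against 0.0869% of all 11509 tested genes. At an unadjusted p under 0.05 the count was also 0, against 3.95% of all genes, and with DESeq2 it was 0 at an FDR under 0.05 (0.452% of all genes) and 0 at an unadjusted p under 0.05 (4.05%). With the replicate number as a block, 0 passed an FDR under 0.05 (2.87% of all genes) and 7 had an unadjusted p under 0.05 (17.9% of all genes). Without the block, the smallest unadjusted p of edgeR was 0.154 (Hmmr), and every member had an FDR of 0.999. The median log2 fold change of the 48 genes was 0.01, against 0.00385 for all tested genes, and the median size regardless of sign was 0.0374 against 0.0931. The members were mostly abundant (median percentile of mean CPM 85.2), and they were not compared with genes of like level. A log2 fold change above 0 was found for 27 members and below 0 for 21 (50.9% of all genes were above 0), but with scaling by library size only, the number above 0 was 19. The values ran from -0.15 (Kif23) to 0.29 (Mki67).

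The precision was high enough to bound these differences. Standard errors of the log2 fold changes had a median of 0.120 in the members, between 0.0875 and 0.295, against 0.147 over all tested genes, whatever their level. The 95% interval of every member lay within 2-fold in either direction, as did that of 90.8% of all genes, and for 44 of 48 members it lay within 1.5-fold (71.1% of all genes). The widest bounds were 0.640-fold for Cenpe and 1.84-fold for Mki67. In bulk RNA, fewer cells in mitosis and less RNA per cell cannot be told apart. The groups did not overlap for 1 of 48 members (Ube2c, hPARG above control), against 9.62% of all tested genes in either direction and 3.61% with hPARG above.

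**Figure D3:**
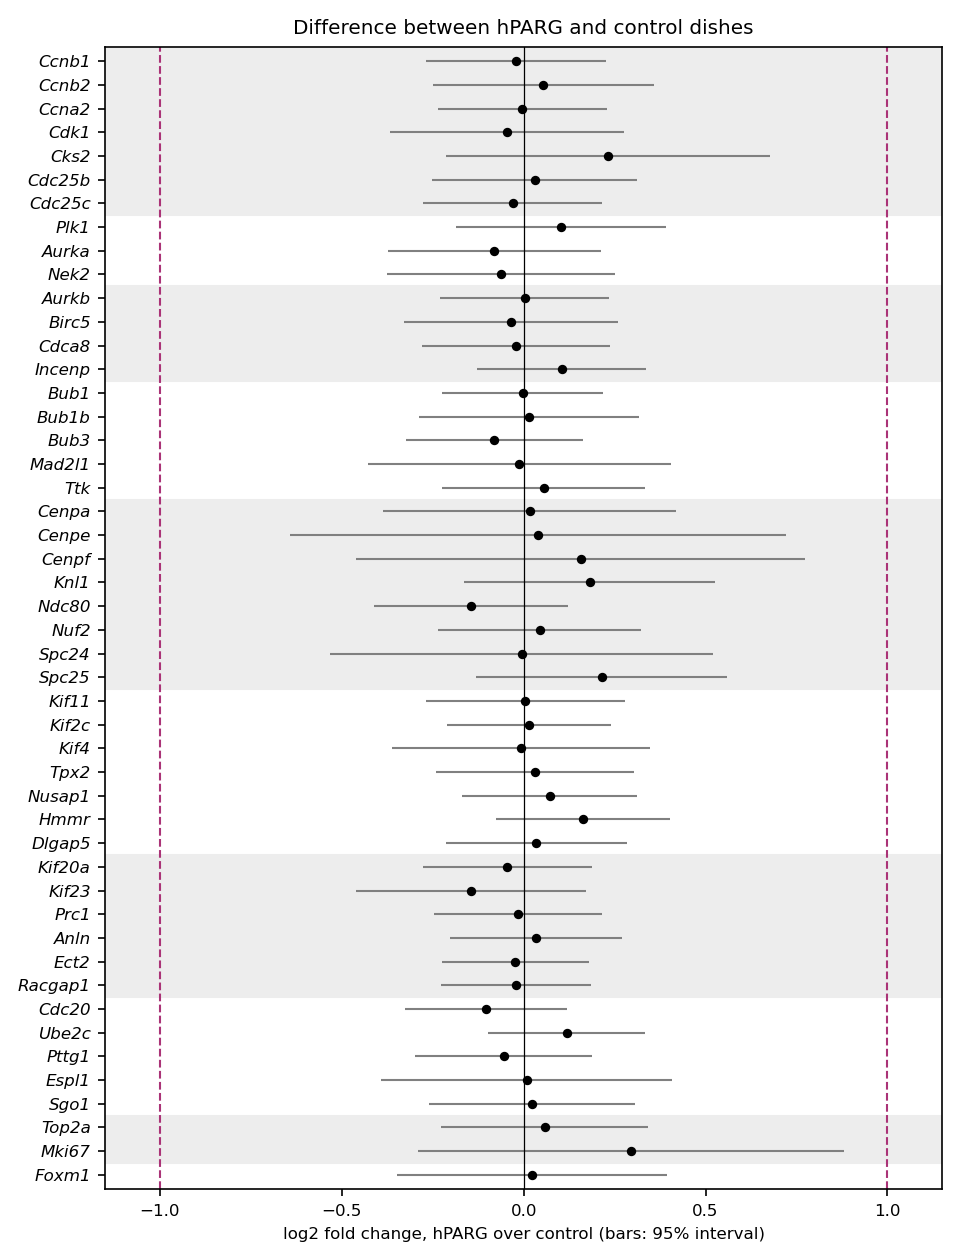
Log2 fold change of hPARG over control for each of the 48 genes (points, edgeR) with its 95% interval (bars), ordered by role, with dashed lines at a 2-fold difference. All bars lie inside the dashed lines, and the longest reach from Cenpe at -0.64 to Mki67 at 0.88.

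Of the 7 genes of the cyclin and Cdk engine, 3 were above 0 and 4 below, with a median log2 fold change of -0.0034. Cdk1 (ENSMUSG00000019942, chromosome 10, 69335146 to 69352938), the kinase that drives entry into mitosis, was at 226.8, 190.3 and 245.3 CPM without DOX and at 238.5, 184.4 and 218.5 CPM with hPARG. The lowest dish of each group was its dish 2, and the groups overlapped (log2 fold change -0.05, SE 0.139, interval -0.37 to 0.28, edgeR FDR 0.999). Its partner cyclin B1, Ccnb1 (ENSMUSG00000041431, chromosome 13, 100778650 to 100786570), was at 218.8, 187.9 and 214.6 CPM without DOX and at 213.6, 188.4 and 210.3 CPM with hPARG. These also overlapped, with dish 2 lowest in both groups (log2 fold change -0.02, SE 0.106, interval -0.27 to 0.22, edgeR FDR 0.999). Cks2, which links Cdk1 to its substrates, was at 78.8, 65.6 and 93.0 CPM without DOX and at 88.4, 74.0 and 116.4 CPM with hPARG. The highest of the 6 dishes was hPARG dish 3 and the lowest control dish 2, and the groups overlapped. Cyclin A2 (Ccna2), cyclin B2 (Ccnb2) and the phosphatases Cdc25b and Cdc25c, which activate Cdk1, had log2 fold changes between -0.03 and 0.05.

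The mitotic kinases gave 1 value above 0 and 2 below. Aurora A (Aurka), which matures the centrosomes, was at 147.4, 123.2 and 150.6 CPM without DOX and at 146.8, 117.2 and 134.3 CPM with hPARG. Polo-like kinase 1 (Plk1) was at 107.3, 105.7 and 87.0 CPM without DOX and at 97.1, 118.5 and 106.5 CPM with hPARG. Both genes overlapped between groups, and the highest dish for Plk1 was hPARG dish 2. The chromosomal passenger complex, which corrects wrong attachments, gave 2 above and 2 below. Its kinase Aurora B (Aurkb) was at 154.6, 131.0 and 148.2 CPM without DOX and at 148.5, 140.5 and 145.7 CPM with hPARG. Its scaffold Incenp was at 164.8, 159.9 and 148.7 CPM without DOX and at 160.0, 183.7 and 165.3 CPM with hPARG. The means of Aurkb were 144.6 ± 12.2 and 144.9 ± 4.09 CPM (SD, n = 3) and the hPARG dishes lay within the control range.

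The spindle assembly checkpoint had 2 of 5 genes above 0. Bub1b, which inhibits Cdc20, was at 152.2, 154.5 and 127.2 CPM without DOX and at 141.0, 167.1 and 130.3 CPM with hPARG. Bub3, its partner, was at 159.9, 135.8 and 156.6 CPM without DOX and at 152.3, 137.4 and 138.0 CPM with hPARG. Both overlapped between groups, and the 5 genes had log2 fold changes between -0.08 and 0.05.

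At the centromere and kinetochore 6 of 8 genes were above 0, with a median log2 fold change of 0.04. Cenpa, the histone variant that marks centromeres, was at 168.1, 130.0 and 185.9 CPM without DOX and at 176.7, 131.1 and 181.8 CPM with hPARG. Both dishes numbered 2 were low and nearly equal. Spc25 (ENSMUSG00000005233, chromosome 2, 69193895 to 69206194), a subunit of the Ndc80 complex that grips microtubules, was at 70.1, 52.5 and 70.3 CPM without DOX and at 83.3, 65.4 and 75.3 CPM with hPARG. Of the hPARG dishes, dish 2 alone lay within the control range (log2 fold change 0.21, SE 0.149, interval -0.13 to 0.56, edgeR FDR 0.999). Its fellow subunit Ndc80 (ENSMUSG00000024056, chromosome 17, 71496100 to 71526857) lay the other way, at 55.4, 52.0 and 64.1 CPM without DOX and at 54.6, 47.8 and 52.6 CPM with hPARG (log2 fold change -0.15, SE 0.115, interval -0.41 to 0.12, edgeR FDR 0.999). Its highest dish was control dish 3 and its lowest hPARG dish 2. The scaffold Knl1 (ENSMUSG00000027326, chromosome 2, 119047119 to 119105501) was at 66.7, 74.7 and 62.0 CPM without DOX and at 63.9, 91.6 and 75.2 CPM with hPARG. The groups overlapped for all 8 kinetochore genes, and Knl1 had a log2 fold change of 0.18 (SE 0.149, interval -0.16 to 0.53, edgeR FDR 0.999).

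Of 7 spindle motors and microtubule proteins 6 were above 0, with a median log2 fold change of 0.03. Without both dishes numbered 2, Kif2c (-0.043), Nusap1 (-0.027), Kif11 (-0.022) and Tpx2 (-0.0075) fell below 0, where Kif4 (-0.025) already lay. Hmmr (0.16) and Dlgap5 (0.0098) stayed above 0. Tpx2, which activates Aurora A on the spindle, was at 308.1, 326.1 and 280.6 CPM without DOX and at 297.2, 350.8 and 286.7 CPM with hPARG. The groups overlapped, with dish 2 highest in each. Hmmr (ENSMUSG00000020330, chromosome 11, 40701395 to 40733422), a microtubule protein of the spindle pole, was at 121.7, 109.2 and 125.4 CPM without DOX and at 132.7, 123.9 and 142.3 CPM with hPARG. For Hmmr 2 of 3 hPARG dishes were above every control dish and hPARG dish 2 was below control dish 3 (log2 fold change 0.16, SE 0.103, interval -0.08 to 0.40, edgeR FDR 0.999). Kif11, the motor that pushes the spindle poles apart, had mean levels of 177.0 CPM without DOX and 177.6 CPM with hPARG.

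Among 6 cytokinesis genes 1 was above 0 and 5 below, all between -0.15 and 0.03. Racgap1, part of the central spindle, varied little, at 348.8, 334.3 and 339.8 CPM without DOX and at 344.0, 330.6 and 332.9 CPM with hPARG. Its partner motor Kif23 was at 119.3, 142.7 and 118.4 CPM without DOX and at 110.4, 133.0 and 100.5 CPM with hPARG. For Kif23, hPARG dishes 1 and 3 were below every control dish, while hPARG dish 2 was above control dishes 1 and 3.

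For anaphase and sister separation 3 of 5 genes were above 0. Cdc20, the activator of APC/C and the target of the checkpoint, was at 231.2, 212.8 and 233.5 CPM without DOX and at 223.2, 200.9 and 206.8 CPM with hPARG. Of the Cdc20 values, hPARG dishes 2 and 3 lay below every control dish and hPARG dish 1 within their range. Ube2c (ENSMUSG00000001403, chromosome 2, 164769898 to 164778822), the ubiquitin-conjugating enzyme of APC/C, was at 211.1, 188.4 and 208.8 CPM without DOX and at 219.5, 216.8 and 223.8 CPM with hPARG. All 3 hPARG dishes of Ube2c were above all 3 control dishes, by little (log2 fold change 0.12, SE 0.0935, interval -0.10 to 0.33, edgeR FDR 0.999). With 3 dishes a side, the smallest p of an exact two-sided permutation test is 0.1. Exons of Tnnc2 overlap 22.8% of the exon bases of Ube2c on the opposite strand, and Tnnc2 itself had 0 or 1 counts in each dish.

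The proliferation markers came next to Foxm1, the transcription factor that drives many of these genes. Top2a (ENSMUSG00000020914, chromosome 11, 98992943 to 99024189), which untangles sister chromatids, had the most counts, at 547.3, 561.3 and 481.9 CPM without DOX and at 526.1, 624.1 and 504.9 CPM with hPARG (log2 fold change 0.06, SE 0.123, interval -0.23 to 0.34, edgeR FDR 0.999). Mki67 (ENSMUSG00000031004, chromosome 7, 135689784 to 135716361), which encodes the Ki-67 protein on mitotic chromosomes, was at 164.5, 242.3 and 155.9 CPM without DOX and at 169.6, 312.3 and 208.2 CPM with hPARG. Dish 2 was the highest of each group for Mki67, and 2 hPARG dishes lay below control dish 2 (log2 fold change 0.29, SE 0.253, interval -0.29 to 0.88, edgeR FDR 0.999). Foxm1 (ENSMUSG00000001517, chromosome 6, 128362967 to 128376146) was at 131.9, 168.5 and 123.4 CPM without DOX and at 127.3, 169.7 and 133.4 CPM with hPARG. Again dish 2 was the highest of each group and the values overlapped (log2 fold change 0.02, SE 0.160, interval -0.35 to 0.39, edgeR FDR 0.999).

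The mitotic genes differed more between dishes 2 and the rest than between the groups. The difference in mean log2 CPM between both dishes numbered 2 and the other 4 ran from -0.60 (Spc24) to 0.80 (Cenpe). For 45 of 48 genes it was larger in size than the log2 fold change between groups. The same share over all tested genes was not computed. Chosen for the size of this difference, Cenpe, a kinetochore motor, was at 66.3, 106.6 and 60.2 CPM without DOX and at 59.0, 113.6 and 66.9 CPM with hPARG. Spc24, a partner of Spc25, was at 37.5, 27.1 and 46.4 CPM without DOX and at 41.6, 27.7 and 41.3 CPM with hPARG. In both cases the 2 dishes numbered 2 stood together on 1 side of the other 4. This held for 34 of 48 members, 18 with dishes 2 higher and 16 with dishes 2 lower. It also held for 54.6% of all tested genes, and so was not confined to the mitotic genes. Cenpf (0.70) and Mki67 (0.67) came next on the high side, and Mad2l1 (-0.45), a checkpoint protein, and Cenpa (-0.45) next on the low side.

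**Figure D4:**
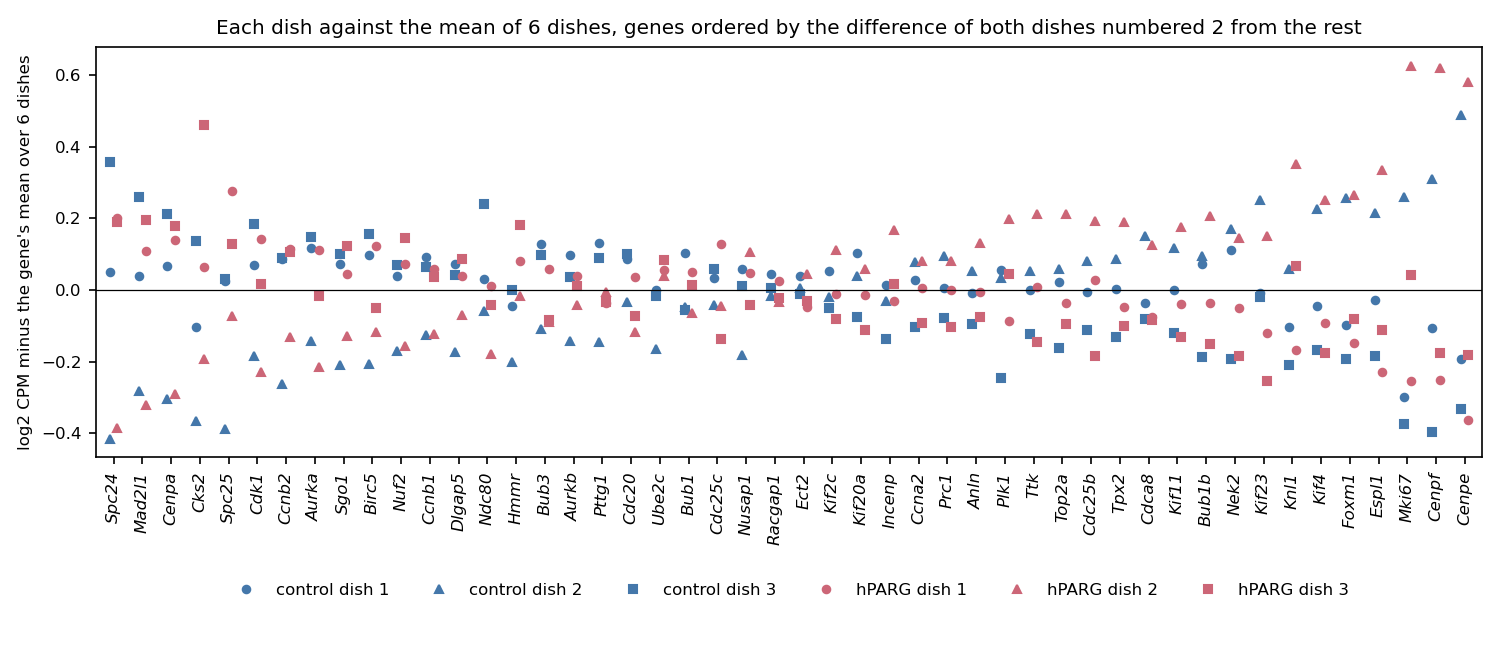
Log2 CPM of each dish minus the mean of that gene over the 6 dishes, with the 48 genes ordered by how far both dishes numbered 2 (triangles) lay from the other 4, control in blue and hPARG in red. The triangles run from below the other dishes at the left (Spc24, -0.60) to above them at the right (Cenpe, 0.80), in both groups.

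The dish 2 difference moved with exon length, taken as the union of the GENCODE M21 exons of a gene. Across the 48 genes Spearman's rho was 0.490, and across all tested genes it was 0.558, as descriptions over genes that share the same 6 libraries. The 12 longest members (from 7079 bases) had a median difference of 0.26 and the 12 shortest (up to 3728 bases) of -0.19. The log2 fold change between groups had a rho of 0.0667 with exon length across the members. What set dishes 2 apart was not tested.

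**Figure D5:**
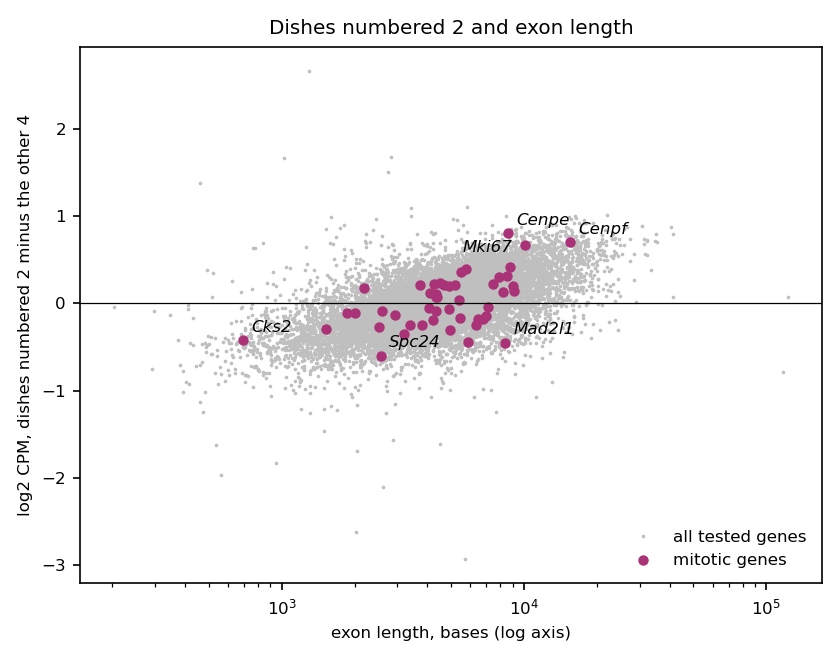
Mean log2 CPM of both dishes numbered 2 minus that of the other 4 dishes against exon length in bases (log axis) for the 48 mitotic genes (purple) and all tested genes (grey). Long genes such as Cenpf and Mki67 lie above 0 and short genes such as Cks2 and Spc24 below, with Spearman's rho of 0.490 in the mitotic genes. Mad2l1 is an exception, with 8390 exon bases and a difference of -0.45.

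Without both dishes numbered 2, 0 of 48 members passed an FDR under 0.05 with edgeR (0.345% of all genes) and 1 had an unadjusted p under 0.05 (6.78% of all genes). That gene was Mki67, with a log2 fold change of 0.24 and an edgeR FDR of 0.680. The log2 fold changes then ran from -0.17 to 0.26 with a median of -0.01, and 12 of 48 had the opposite sign. The number of members above 0 was 19. The groups of 2 dishes did not overlap for 14 members, against 35.4% of all tested genes.

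Another 5 lists of related genes were read beside the members. No gene of them passed an FDR under 0.05 with edgeR without the block (0.0869% of all genes). With the block, 1 gene of condensin and cohesin and 1 of DNA replication and S phase passed (2.87% of all genes). Of 21 tested factors of the DREAM, MuvB, E2F, RB and NF-Y families, which set the timing of these genes, 7 were above 0 and 14 below, with a median log2 fold change of -0.04, and 0 had an unadjusted p under 0.05. The family member E2f6 did not pass the filter on low counts. Rb1, the retinoblastoma protein that restrains E2F, had the smallest p of the list, at 9.95, 12.9 and 8.48 CPM without DOX and at 11.1, 16.2 and 12.5 CPM with hPARG, which overlapped (log2 fold change 0.35, edgeR FDR 0.999). Of 17 APC/C subunits and cofactors 5 were above 0 and 12 below (median -0.03), with 1 at an unadjusted p under 0.05 (3.95% of all genes). That was Fbxo5, an inhibitor of APC/C, at 50.6, 54.3 and 50.4 CPM without DOX and at 44.6, 45.5 and 43.3 CPM with hPARG (log2 fold change -0.22, edgeR FDR 0.999). Every hPARG dish of Fbxo5 was below every control dish, as for 6% of all tested genes. Of 22 condensin and cohesin genes 7 were above 0 (median -0.03), and 0 had an unadjusted p under 0.05. Stag1, a cohesin subunit, had the smallest p of these, at 75.8, 87.4 and 67.5 CPM without DOX and at 64.2, 75.2 and 55.8 CPM with hPARG, which overlapped (log2 fold change -0.24, edgeR FDR 0.999). Of 60 other mitotic genes 29 were above 0 and 31 below (median -0.01). Among these 1 had an unadjusted p under 0.05 (3.95% of all genes). It was the kinetochore gene Nsl1, at 27.6, 26.9 and 27.0 CPM without DOX and at 23.3, 22.8 and 21.5 CPM with hPARG (log2 fold change -0.27, edgeR FDR 0.999).

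The genes of DNA replication and S phase, which are used before the mitotic genes in the cycle, lay mostly below 0. Of 29 genes 3 were above 0 and 26 below, with a median log2 fold change of -0.09, and 0 had an unadjusted p under 0.05. With scaling by library size only, 29 of the 29 were below 0, and with 1 dish left out it was between 18 (without hPARG dish 2) and 27. Without both dishes numbered 2, 28 were below 0. The groups did not overlap for 5 of the 29 genes, all with hPARG below, against 6% of all tested genes. Mcm10, which helps to start replication, had the smallest p of the list, at 75.7, 76.3 and 69.1 CPM without DOX and at 64.4, 66.4 and 60.3 CPM with hPARG, which did not overlap (log2 fold change -0.21, edgeR FDR 0.999). Whether this list differed from the mitotic genes was not tested.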

How the data were processed

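RNA-seq of 6 dishes of 1 clone was used, 3 control and 3 hPARG, grouped by the sample titles. The authors trimmed 150 bp paired-end reads and mapped them to GRCm38 (Ensembl release 96) in CLC Genomics Workbench 12.0, allowing at most 10 hits for a read. Whole-number counts per gene, not normalized, were deposited by the authors. RPKM values were deposited too, and served only to compare levels between genes and for the markers. The use of strand in counting is not given in the sources used here. The deposited columns of the authors' own comparison (fold changes and p-values) were not used. Gene identifiers were all found in GENCODE release M21, and 177 names differed.

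Genes were filtered with filterByExpr (minimum count 10), then TMM-scaled, and tested two-sided without a block by the quasi-likelihood functions of edgeR 4.0.16 (R 4.3.3). FDR is Benjamini-Hochberg over 11509 genes. Standard errors were taken as the size of the log2 fold change over the root of F. DESeq2 1.42.0, other scalings, filters and a likelihood ratio test, an exon length correction (splines with 4 degrees of freedom per dish), a replicate block and leaving out dishes were alternatives. The fits were tested on simulated data.

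Members and lists were chosen with earlier results of these data known, so no list was given a p. Dish values were printed for the member of each role with the highest mean RPKM and that with the smallest p, and full statistics for the 5 members with the smallest p and for Mki67, Top2a, Ccnb1, Cdk1 and Foxm1. Of each related list the gene with the smallest p was named. Cenpe, Cenpf, Spc24, Mad2l1 and the genes of the printed promoters were named after their values were seen. Precision is limited by 3 dishes per group.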

Additional observations from a re-analysis of the deposited data

How the results depend on the processing

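No member passed an FDR under 0.05 under any alternative that was run, namely other scalings, filters, tools, the exon length correction, the replicate block and each dish left out. The replicate numbers were used as a block in 2 alternatives, without and with the exon length correction. Deviations of dishes with the same number correlated at 0.0963, 0.610 and 0.168 for numbers 1, 2 and 3. Control dish 1 correlated best with hPARG dish 3 and control dish 3 with hPARG dish 1. The numbers were therefore not taken as pairs, although both dishes numbered 2 were alike. Without a block, what these 2 dishes share stays in the error of the test. The largest standard error of a member, 0.295 (Cenpe), fell to 0.0698 when blocked, and the smallest, 0.0875 (Ect2), fell to 0.0537. With the replicate block 7 members had an unadjusted p under 0.05 and with the block and the exon length correction 5, against 0 without it, and the lowest FDR of a member was 0.0573 (Mki67). The block raised the calls over all genes from 10 to 330 (2.87%) at an FDR under 0.05, and the share at an unadjusted p under 0.05 to 17.9%. With the block and the exon length correction 276 genes were called, and 18.3% of all genes had an unadjusted p under 0.05. The alternatives without a block gave between 3 and 65 calls. Of the related lists, 1 condensin or cohesin gene and 1 gene of DNA replication and S phase passed an FDR under 0.05 with the block. Without both dishes numbered 2, 1 member had an unadjusted p under 0.05 (6.78% of all genes). The groups did not overlap for 2 members with the exon length correction (11.7% of all genes), with library size only (10.2%) or with no filter (8.23%). The number was 14 without both dishes numbered 2 (35.4% of all genes), and 1 to 8 when 1 dish was left out. Fewer dishes make such separation more frequent (14.7 to 23.7% of all genes with 1 dish left out). Foxm1 changed sign with library size only (log2 fold change -0.0058). With 1 dish left out the log2 fold changes ran from -0.086 to 0.033 for Ccnb1, from -0.14 to 0.049 for Cdk1, from -0.12 to 0.17 for Foxm1 and from -0.041 to 0.12 for Top2a, and that of Mki67 from 0.00904 (without hPARG dish 2) to 0.52 (without control dish 2). The cause of these shifts was not tested. In all, 229 of the recomputed values were taken as the same, 12 as moved and 11 as changed in sign. Fold changes of single genes were judged by sign and side of the threshold, and the median by the spread between dishes. Counts of members were taken as the same if equal or within a factor of 1.5. All 12 values that moved were counts of members. Depth was no limit for the members, whose lowest count in a dish was 630.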

Other observations

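Opposite-strand exons covered over 10% of the exon bases of 6 members, and reads of such pairs cannot be told apart where strand was not used in counting. Cdc23, an APC/C subunit, overlaps 29.3% of the exon bases of Kif20a and had 1643 to 2007 counts per dish. Pdzd11 overlaps 15.1% of Kif4 and had 983 to 1138 counts, and Exosc9 overlaps 12.5% of Ccna2 and had 716 to 856. Rccd1 overlaps 11.1% of Prc1 with 104 to 147 counts, and Gm3550 overlaps 12.7% of Cdc25c with 3 to 17.

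The related lists were also compared between both dishes numbered 2 and the other 4. The median difference in log2 CPM was -0.01 for the 60 other mitotic genes, 0.26 for condensin and cohesin genes, 0.10 for the DREAM, MuvB, E2F, RB and NF-Y factors, -0.09 for genes of DNA replication and S phase and -0.19 for APC/C subunits and cofactors. Spearman's rho of that difference with exon length was between 0.234 and 0.453 within these 5 lists, as a description. The median log2 fold change between groups was 0.01 for the 30 members with a CHR in their window and -0.01 for the 9 without.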
